A study of Enchytraeus crypticus with 60 samples.

Results

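The 100 gene probes described here were chosen, out of 23179 probes measured on every array, for their response to the silver nanomaterial Ag NM300K in the soil worm Enchytraeus crypticus. Expression was the log2 processed signal of a probe minus the median of its array, so that 0 stands for the median probe of that array. A probe was a candidate if its 4 changes under Ag NM300K, each a group mean minus the mean of the dispersant control of the same day, had one sign, and if the mean of the 12 changes under the other silver forms was below 0.25 in size. One sign held for 5465 probes, the second condition left 2681 of them, and the 100 with the largest mean change over the 4 groups were taken as members. Of these, 44 were higher and 56 were lower under Ag NM300K. The members were thus chosen by measured values, the 4 changes under Ag NM300K and the mean of the other 12, which are given as a description.

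The worms were exposed for 3 or 7 days in natural LUFA soil to concentrations that reduce reproduction by 20% (EC20) or 50% (EC50). The silver groups were Ag NM300K, the salt AgNO3, and silver nanoparticles in a coated form (Ag-NPs PVP-Coated) and an uncoated one (Ag-NPs Non-Coated), each at EC20 and EC50 and at 3 and 7 d, and the controls were soil with the dispersant of Ag NM300K (which holds Tween 20) and un-spiked soil at both days. Each of the 20 groups had 3 arrays, described as biological replicates, and each array held the RNA of a pool of 20 whole adult worms with a well developed clitellum. All Ag NM300K worms also met the dispersant, which no worm of the other silver groups did. The 2 doses of a day were set against the same 3 dispersant arrays, so that the 4 changes of a member rest on only 2 control means. RNA of whole worms does not tell fewer cells of a type from less RNA per cell.

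Enchytraeus crypticus is a small white potworm used in standard tests of soil toxicity, where reproduction is the usual endpoint. Silver ions bind to thiol groups of proteins, and silver nanoparticles can release such ions. Ag NM300K is a reference nanomaterial supplied as a dispersion, whereas AgNO3 is a soluble salt, and Tween 20 is a non-ionic surfactant. The array probes were designed on assembled contigs and single reads of the transcriptome. Only the identifiers of these contigs and reads stand beside the probes in the files used here, so the function of the members is not described.

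The label of the list, probes changed by Ag NM300K alone, was only in part borne out by the levels in the separate groups. At 3 d the dispersant control was displaced from un-spiked soil in nearly all members, and in many of them more than Ag NM300K was, whereas at 7 d it was the farther one in a minority. Over the 44 higher members, the median deviation from a probe's mean over all 60 arrays was between -0.07 and 0.47 on the 12 Ag NM300K arrays, against -1.36, -0.30 and -0.64 on the 3 dispersant arrays at 3 d and -0.37, -0.18 and -0.08 on the 3 at 7 d. On the 6 un-spiked arrays it was between -0.23 and 0.11. Hence the 3 d dispersant arrays were low in the higher members. The rule favours this, since it ranks by the distance from the dispersant means. The first dispersant array at 3 d was the lowest of all 60 arrays in 16 of 44 higher members, compared to 3.45% of all kept probes. It was the highest in 10 of 56 lower members, compared to 5.06%. These counts rest on an array that the rule used and were not tested.

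The lower members gave the same picture with the sign turned. Their median deviation was between -0.38 and 0.14 on the 12 Ag NM300K arrays, against 0.86, 0.52 and 0.81 on the 3 d dispersant arrays and 0.29, 0.21 and 0.33 on the 7 d dispersant arrays. On the un-spiked arrays it was between -0.15 and 0.21, which overlapped with the Ag NM300K arrays. All 6 dispersant arrays lay above every Ag NM300K array, as the choice of members favours.

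**Figure D1:**
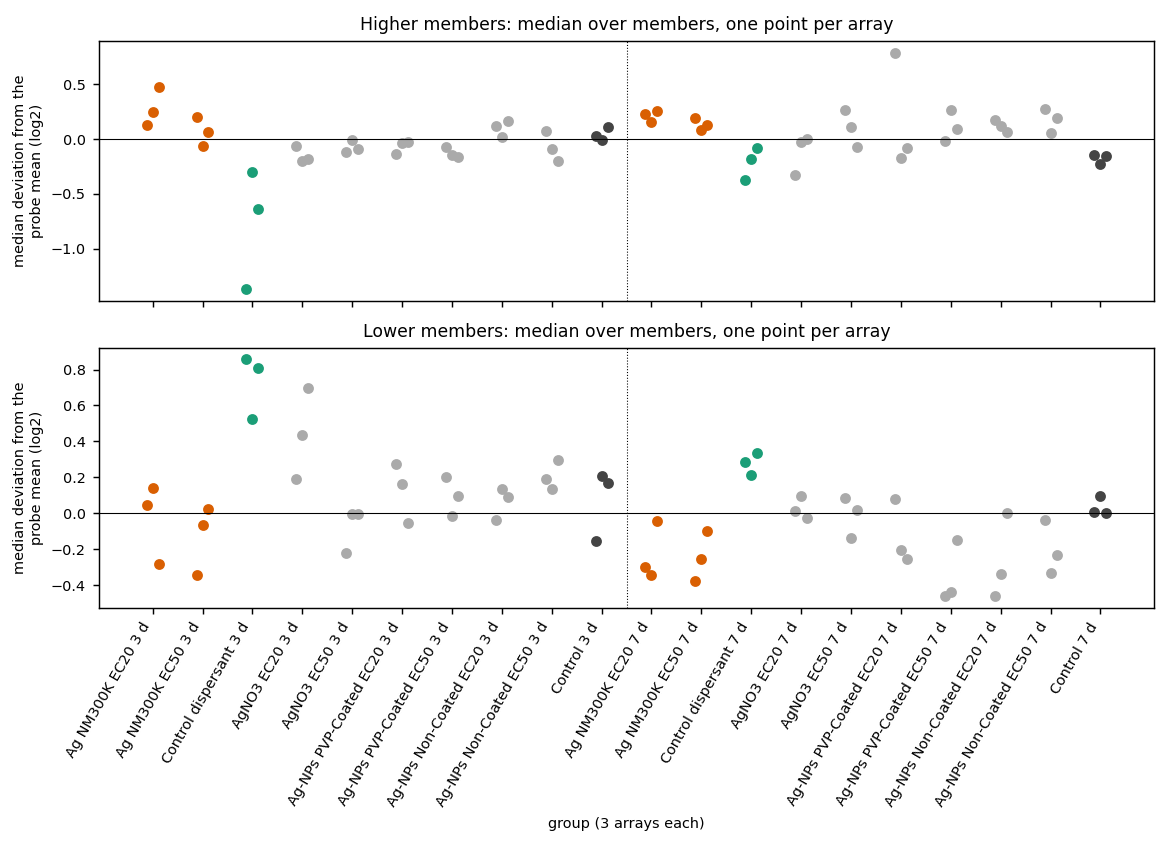
Median deviation from the probe mean (log2) over the higher members (top) and the lower members (bottom), with 1 point per array and 3 arrays per group, Ag NM300K in orange, dispersant controls in green, un-spiked controls in dark grey and other silver forms in light grey. The 3 d dispersant arrays sit at -1.36, -0.30 and -0.64 in the higher members and at 0.86, 0.52 and 0.81 in the lower members.

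The mean of the 20 groups in which a member was most extreme was often that of the 3 d dispersant control. It was the lowest group mean in 20 of 44 higher members (45.5%), compared to 5.44% of all kept probes, and the highest group mean in 25 of 56 lower members (44.6%), compared to 8.54% of all kept probes. The Ag NM300K EC20 group at 3 d was the highest of the 20 groups in 7 higher members (15.9%, compared to 4.59% of all kept probes) and the lowest in 8 lower members (14.3%, compared to 4.11%). These counts were not tested, because the rule selects probes in which the dispersant and the Ag NM300K means lie apart.

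Measured from un-spiked soil of the same day, which entered the rule only through the other silver forms, the dispersant control at 3 d was lower in 43 of 44 higher members, with a median difference of -0.66 (-1.62 to 0.09), and higher in all 56 lower members, with a median of 0.61 (0.07 to 1.54). Ag NM300K EC20 differed from un-spiked soil at 3 d by a median of 0.25 in the higher members and -0.13 in the lower members, and EC50 by 0.07 and -0.20. At 7 d the distances were more alike. Ag NM300K EC20 and EC50 lay 0.42 and 0.27 above un-spiked soil in the higher members, against -0.19 for the dispersant control, and in the lower members -0.32 and -0.31, against 0.22 for the dispersant control. At 3 d the dispersant mean was farther from un-spiked soil than the mean of both Ag NM300K groups in 33 of 44 higher and 39 of 56 lower members (75% and 69.6%, compared to 50.7% of all kept probes). At 7 d this was so in 17 higher and 25 lower members (38.6% and 44.6%, compared to 39.3%). These counts rest on means that the rule used, and their difference between the days was not tested.

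**Figure D2:**
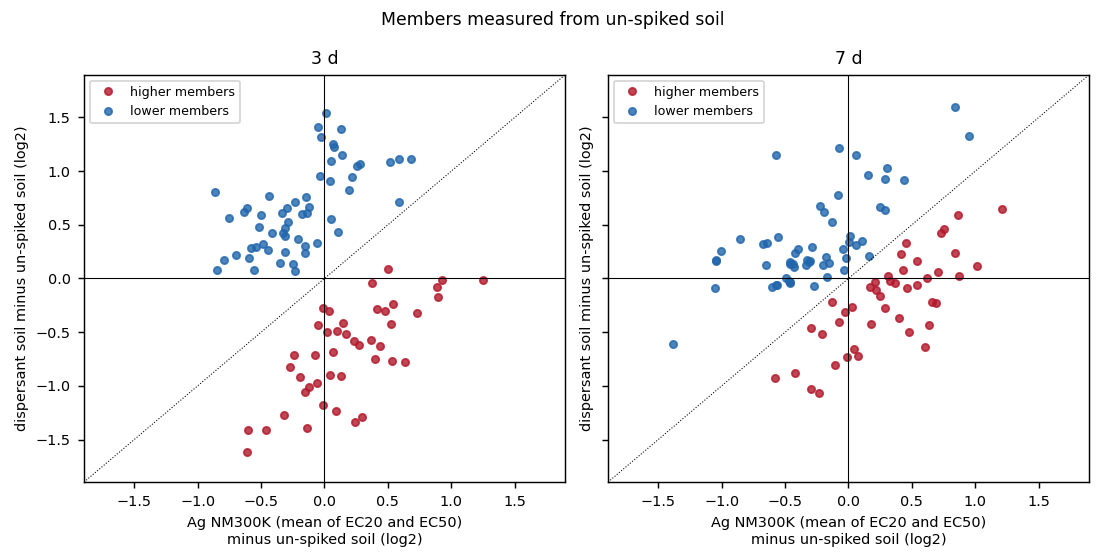
Each member's dispersant control minus un-spiked soil (vertical axis, log2) against the mean of both Ag NM300K doses minus un-spiked soil (horizontal axis, log2) at 3 d (left) and 7 d (right), with higher members in red, lower members in blue and a dotted line of equal differences. At 3 d the points spread along the vertical axis, with 43 of 44 higher members below 0 and all 56 lower members above 0.

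The mean change over the 4 Ag NM300K groups was between 0.59 and 0.995 in the higher members (1.51-fold to 1.99-fold, median 0.69) and between -1.21 and -0.59 in the lower members (median -0.68). The last member had a mean change of -0.593, and the first probe left out had -0.589. By comparison, the median changes of the higher members were 0.94 for EC20 and 0.82 for EC50 at 3 d, and 0.57 for EC20 and 0.46 for EC50 at 7 d. Those of the lower members were -0.82 and -0.74 at 3 d and -0.56 and -0.55 at 7 d. Over all kept probes the medians were between -0.02 and 0.04.

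The 2 lower members first in the order were contig17683 and contig02390. In contig17683, expression was -1.11, -1.84 and -1.16 under EC20 and -3.01, -0.53 and -0.64 under EC50 at 3 d, against 0.29, 0.87 and -0.29 in the dispersant control. At 7 d it was -0.92, -0.95 and -0.52 under EC20 and -1.28, -0.72 and -0.27 under EC50, against -0.47, 0.14 and 0.27 in the dispersant control. All Ag NM300K arrays were below the dispersant arrays of the day, save that the EC50 arrays overlapped with them at 7 d. The un-spiked arrays were at -0.08, -0.90 and -0.59 at 3 d and at -2.76, -1.66 and -0.43 at 7 d. In the mean, Ag NM300K thus lay below un-spiked soil at 3 d and above it at 7 d. This member was under-expressed in AgNO3 EC50 at 3 d, by -2.74 against un-spiked soil (limma, adjusted p = 0.00498), with 1 of its 3 arrays well above background, while its mean over the 12 comparisons was 0.13.

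In contig02390, expression was -2.57, -1.81 and -2.95 under EC20 and -2.83, -2.02 and -1.82 under EC50 at 3 d, against -1.36, -1.22 and -0.81 in the dispersant control. At 7 d it was -2.16, -2.56 and -2.80 under EC20 and -2.20, -2.81 and -2.38 under EC50, against -0.84, -1.67 and -1.95 in the dispersant control. The groups did not overlap in any of the 4 comparisons, and the changes were even, from -1.31 to -0.98. The un-spiked arrays spread over both groups, at -3.29, -0.95 and -1.46 at 3 d and -1.55, -1.57 and -2.30 at 7 d.

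The 2 higher members first in the order were the read GYUW2K402F8J6C and contig17046, both dim. In GYUW2K402F8J6C, expression was -1.05, -1.81 and -2.36 under EC20 and -2.43, -3.26 and -1.38 under EC50 at 3 d, against -3.64, -2.58 and -4.65 in the dispersant control. At 7 d it was -2.64, -2.57 and -1.62 under EC20 and -3.05, -2.30 and -2.78 under EC50, against -4.34, -1.35 and -3.02 in the dispersant control. EC20 at 3 d was above the dispersant arrays throughout, and the other 3 groups overlapped with them. Only 1 of the 3 dispersant arrays at 3 d and 2 of 3 at 7 d were well above background, which is the scanner software's flag for a spot clearly brighter than its surround.

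In contig17046, expression was -2.71, -2.79 and -0.95 under EC20 and -2.74, -2.11 and -3.02 under EC50 at 3 d, against -2.68, -2.60 and -3.92 in the dispersant control. At 7 d it was -2.56, -2.37 and -2.80 under EC20 and -2.80, -2.30 and -3.14 under EC50, against -2.55, -3.54 and -5.10 in the dispersant control. The groups overlapped in all 4 comparisons. The lowest dispersant array (-5.10 at 7 d, a signal of 2.56 units) was not well above background, and among the Ag NM300K and control arrays the highest was 1 of EC20 at 3 d (-0.95), while the other silver arrays reached 1.84.

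**Figure D3:**
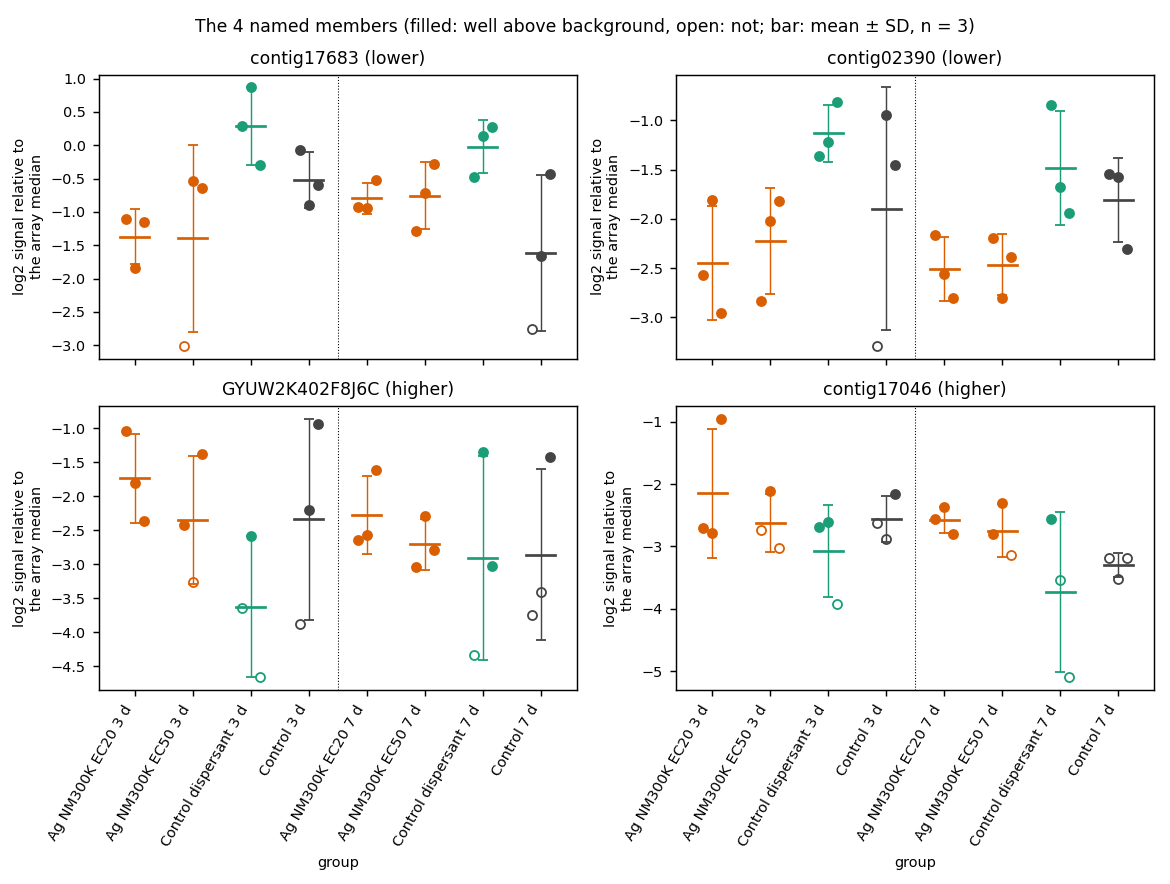
Expression (log2 signal relative to the array median) of contig17683, contig02390, GYUW2K402F8J6C and contig17046 in Ag NM300K (orange), dispersant (green) and un-spiked soil (dark grey), with 1 point per array, open where the spot was not well above background, and bars for mean and SD (n = 3). In contig02390 the Ag NM300K arrays lie below the dispersant arrays at both days, while in contig17046 the groups overlap.

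Most members were dim. The median signal was 17.1 units in the higher and 30.8 units in the lower members, compared to 95.8 units over all kept probes. Only 6 of 44 higher members (13.6%) and 22 of 56 lower members (39.3%) were well above background on all 60 arrays, compared to 71.8% of all kept probes. In the dispersant control at 3 d, 15 higher members were not well above background on any of the 3 arrays, and no lower member was in that state. For these the change has only a lower bound, set by the dimmest signal well above background on each array, or the member's own where that was brighter. Under EC20 at 3 d the bound was above 1 in 12 of the 15, with bounds of 1.03-fold to 2.41-fold. The third higher member was at least 2.21-fold higher under EC20 (adjusted p = 0.0558) and at least 2.31-fold higher under EC50 (limma, adjusted p = 0.0445). The spread within groups was larger as well, with a median SD of 0.56 in the higher and 0.48 in the lower members, compared to 0.36 over all kept probes. On the 3 d dispersant arrays the SD was 0.74 in the higher members, 0.38 in the lower members and 0.35 over all kept probes.

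A few members were bright. The fifth lower member, with a mean signal of 1486 units, had 4.04, 3.04 and 2.89 under EC20 and 2.39, 3.67 and 4.20 under EC50 at 3 d, against 4.90, 4.31 and 4.67 in the dispersant control, and 3.59, 3.68 and 3.64 under EC20 and 3.74, 3.72 and 3.82 under EC50 at 7 d, against 4.27, 4.19 and 4.62 in the dispersant control. Ag NM300K did not overlap with the dispersant control in any of the 4 comparisons. Un-spiked soil lay between them in the mean, and its arrays at 3 d overlapped with both, at 4.0 ± 0.49 at 3 d and 4.12 ± 0.20 at 7 d (SD, n = 3). The third lower member (1835 units) had 5.85 and 5.61 on the third dispersant array of each day. The other dispersant arrays read 3.49 and 3.24 at 3 d and 4.63 and 4.52 at 7 d, so that the 3 d arrays without the third lay within the range of Ag NM300K. Both high arrays were on the same slide, whose other arrays, of AgNO3 EC20 and Ag-NPs PVP-Coated EC50 at 3 d, read 5.11 and 4.83. The brightest member of all, the thirty-sixth higher one (5256 units), had 3.98, 5.84 and 7.43 in the dispersant control at 3 d, an SD of 1.73, and its change under EC20 at that day was 0.02.

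Differential expression was tested in each of the 4 comparisons with limma at a false discovery rate of 5% over all kept probes. Since the rule chose the members on these same contrasts, the counts are descriptive. Of the members, 14 were called under EC20 at 3 d (1.25% of all kept probes were), 9 under EC50 at 3 d (1.22%), 0 under EC20 at 7 d (0.229%) and 1 under EC50 at 7 d (0.876%). At an unadjusted p under 0.05 the counts were 52, 46, 23 and 19 members, compared to 12.8%, 12.3%, 9.66% and 13.8% of all kept probes. In at least 1 of the 4 comparisons 18 members were called (2.81% of all kept probes were). In 82 members no comparison passed, in 12 members 1 passed, and in 6 members, all lower ones, the 2 comparisons at 3 d did. Of the 23179 kept probes, 22528 passed in none, 498 in 1, 135 in 2, 12 in 3 and 6 in all 4. No member passed in 3 or 4. The arrays of the 2 groups did not overlap in 44 members for EC20 and 43 for EC50 at 3 d (11.2% and 9.13% of all kept probes) and in 39 for EC20 and 31 for EC50 at 7 d (19.7% and 21.5%). None of the 4 named members was called in any of the 4 comparisons, with the smallest adjusted p of 0.0753 in contig02390 under EC20 at 3 d. Without the first dispersant array at 3 d, 4 members were called under EC20 and 3 under EC50 at 3 d, while the share of all kept probes called was 1.73% under EC20 and 0.565% under EC50. The count under EC20 was 7 without the third dispersant array (1.10% of all kept probes called). It was 8 or 6 without the first or the third EC20 array (0.695% and 0.630%). The count under EC50 was 4 or 5 without the first or the second EC50 array (1.49% and 0.669%). Limma on the compared groups alone called 0 members in each of the 4 comparisons (0.0043%, 0%, 0.035% and 0.0086% of all kept probes called). The methods' test of each probe by itself with Benjamini-Hochberg adjustment also called 0 members in each (0%, 0%, 0.0043% and 0%). Both thus called almost no probe at all.

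The 6 members called under both doses at 3 d were looked at after their values were seen. The twelfth lower member (239 units) had 1.34, 1.16 and 1.0 under EC20 and 0.72, 1.5 and 0.86 under EC50, against 2.68, 2.10 and 2.55 in the dispersant control, which gave changes of -1.27 ± 0.23 and -1.41 ± 0.23 (SE; limma, adjusted p = 0.00236 and 0.000191). Its un-spiked arrays read 1.72, 0.98 and 0.68, overlapping with Ag NM300K and below all dispersant arrays. At 7 d the dispersant arrays read 1.44, 1.19 and 1.36, and the changes were -0.35 and -0.16. The seventh lower member averaged -0.21 under EC20 and -0.18 under EC50, against 1.27 in the dispersant control, and un-spiked soil averaged -0.14. The eighth averaged -0.27 and -0.39, against 1.19 in the dispersant control, with un-spiked soil at -0.35. The seventh and the eighth moved together, with Pearson's r of 0.94 over the 42 arrays without Ag NM300K or dispersant, as a description of arrays that share groups and slides. The seventeenth lower member had -1.08, -1.12 and -1.65 under EC20 and -1.84, -0.42 and -0.81 under EC50, against -0.22, 0.18 and 0.36 in the dispersant control, with un-spiked soil at -1.73, -1.11 and -0.999. In these 4 members both Ag NM300K means lay within 0.26 of un-spiked soil at 3 d. The dispersant mean was the highest of the 20 groups in the seventh and the eighth, whereas AgNO3 EC20 at 3 d was level with it or above in the twelfth (2.72, against 2.44 in dispersant soil) and the seventeenth (0.119, against 0.107). The twenty-seventh lower member was like the seventh, with Ag NM300K 0.10 and 0.03 above un-spiked soil and the dispersant 1.25 above it. The twenty-eighth went the other way, with EC20 at -0.72 and EC50 at -0.78 from un-spiked soil, farther than the dispersant control at 0.57.

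Among the higher members, 4 were called under EC20 and 2 under EC50 at 3 d, and none under both. The sixteenth higher member had -1.14, -0.56 and -1.01 under EC20 at 3 d, against -3.21, -2.59 and -1.87 in the dispersant control, a change of 1.65 ± 0.36 (SE; limma, adjusted p = 0.0124), and its un-spiked arrays read -1.48, -1.02 and -1.46. At 7 d it had -1.36, -1.75 and -1.22 under EC20, against -2.34, -1.45 and -1.12 in the dispersant control, which overlapped. The single call at 7 d was the thirtieth lower member under EC50, at -2.37 against -1.14 in the dispersant control, a change of -1.23 ± 0.30 (SE; limma, adjusted p = 0.0329). No call remained at 7 d when any 1 of the 6 arrays compared was left out. The thirtieth lower member was also called under Ag-NPs PVP-Coated EC50 at 7 d, by -1.06 against un-spiked soil (limma, adjusted p = 0.0293).

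The changes did not differ detectably between the doses. EC50 minus EC20 had a median of -0.13 at 3 d and -0.13 at 7 d in the higher members, and of -0.03 and 0.06 in the lower members. The moderated F-test of EC50 against EC20 at both days called 0 members and 0 of all kept probes (0%), with 3 members and 4.31% of all kept probes at an unadjusted p under 0.05. The EC50 change was the larger in 19 of 44 higher and 31 of 56 lower members at 3 d, and in 17 and 20 at 7 d. Both doses were set against the same dispersant arrays, so that this control cancels in the difference between the doses. The rule asks for one sign in every Ag NM300K group, which limits how far the doses can differ.

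The mean change over the doses was 0.91 in the median higher member at 3 d and 0.51 at 7 d, and -0.81 and -0.53 in the median lower member. It was larger at 3 d in 30 of 44 higher and 39 of 56 lower members, and more than 2 times as large in 21 and 18. It was more than 2 times as large at 7 d in 5 and 10. Of the 23179 kept probes, 11157 had the larger change at 3 d. It was more than 2 times as large at 3 d in 6737 of them and at 7 d in 7337. The members' counts rest on dispersant means that the rule used, so they are a description. Tested over both doses (limma, moderated F), the difference of the Ag NM300K change between 7 d and 3 d passed in 0 members (0.397% of all kept probes), with 10 members and 11.4% of all kept probes at an unadjusted p under 0.05. No member thus changed its response detectably between the days, in a list that asks for one sign at both.

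The controls were compared between days on their own. In dispersant soil, 14 members differed between 7 d and 3 d (limma; 9.1% of all kept probes did). Of the higher members 3 rose, and of the lower members 10 fell and 1 rose, between -1.63 and 1.61. The seventeenth and the twenty-second higher member rose by 1.18 and 1.21. The twenty-seventh was not well above background on any dispersant array at 3 d and was at least 1.37-fold higher at 7 d (limma, adjusted p = 0.0155). The 3 d dispersant arrays in this comparison also served in the rule. Without the first of them 8 members were called (6.92% of all kept probes), and without the second 7 d array 9 were (5.34%). In un-spiked soil, 5 members differed between the days (7.08% of all kept probes did), of which 1 higher member fell by 1.73, and 2 lower members rose and 2 fell. Without 1 array of un-spiked soil this count was 9 (first array at 3 d), 2 (second at 3 d), 3 (the third at 3 d) or 3 (the third at 7 d). The shares of all kept probes called were 9.27%, 3.93%, 2.65% and 6.84% in the same order. The thirty-first lower member rose by 2.36 ± 0.43 in un-spiked soil (SE; adjusted p = 0.000877).

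Changes under the other silver forms were small only in their mean. The 12 separate changes of a member reached a size of 0.89 in the median higher and 0.88 in the median lower member, compared to 0.71 over all kept probes. In 31 of 44 higher and 44 of 56 lower members at least 1 of the 12 was larger in size than the mean change under Ag NM300K (70.5% and 78.6%), compared to 99.3% of all kept probes. The rule favours a lower share in the members, since it takes the largest mean changes under Ag NM300K and a small mean of the other 12. All 12 were below 0.5 in size in 3 higher members and 1 lower member (6.82% and 1.79%, compared to 25.8% of all kept probes). Averaged over the 4 comparisons of a form, the median change of the higher members was -0.02 under AgNO3, 0.10 under Ag-NPs PVP-Coated and 0.15 under Ag-NPs Non-Coated, and that of the lower members was 0.06, -0.06 and -0.12.

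In at least 1 of the 12 comparisons 9 members were called, 2 higher and 7 lower ones (22.3% of all kept probes were), a count that the rule holds down. Under AgNO3 EC20 at 3 d the lower members went the other way, with 41 of 56 above un-spiked soil, a median of 0.37, and 2 called (3.57%, compared to 3.74% of all kept probes), the twelfth (1.60, limma, adjusted p = 0.000283) and the seventeenth (1.40, adjusted p = 0.00286). Both were high in the 3 d dispersant control as well. At 7 d under Ag-NPs PVP-Coated EC50, 43 of 56 lower members were below un-spiked soil, with a median of -0.41 and 3 called (5.36%, compared to 5.22% of all kept probes). A single higher member was called there (2.27%), the eighteenth, which was at least 3.57-fold higher than in un-spiked soil, where no array was well above background (limma, adjusted p = 0.0124). The thirty-first lower member was over-expressed under Ag-NPs PVP-Coated EC20 at 3 d (1.49) and under-expressed at 7 d (-1.78) in the same material, against un-spiked arrays that themselves differed between the days.

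**Figure D4:**
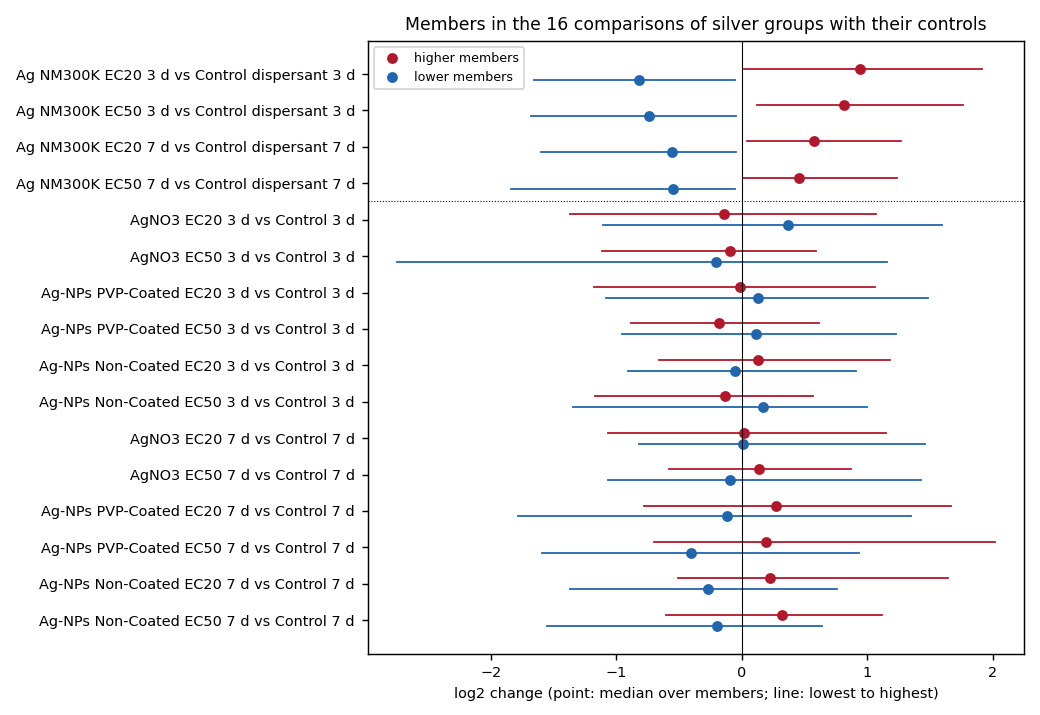
Log2 changes of the higher members (red) and lower members (blue) in the 16 comparisons of a silver group with its control, with the median over members as a point and the lowest to highest member as a line. The 4 Ag NM300K comparisons at the top are one-sided by the rule, and the medians of the other 12 lie between -0.41 and 0.37.

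Slides held arrays of several groups, and 1 slide in each of the 4 comparisons held an Ag NM300K array together with a dispersant array of the same day. Within these slides, the median difference in the higher members was 1.71 for EC20 and 0.41 for EC50 at 3 d and 0.57 for EC20 and 0.51 for EC50 at 7 d, and 41, 33, 41 and 35 of 44 were above 0. In the lower members it was -0.90, -0.48, -0.33 and -0.59, and 48, 48, 42 and 48 of 56 were below 0. Over all kept probes the medians were -0.03, -0.07, 0.02 and 0.03. These arrays served in the rule, so that one sign in most members is favoured by the choice. The third dispersant arrays of both days shared a slide that was scanned on a day of its own. On that slide the median deviation of the lower members was 0.70 for the array of AgNO3 EC20 at 3 d and 0.20 for that of Ag-NPs PVP-Coated EC50 at 3 d. With these 2 dispersant arrays left out, the rule picked 41 of the 100 members again. Of the original members, 6 and 10 were then called under EC20 and EC50 at 3 d (1.04% and 2.76% of all kept probes). The part of the slide in the members' levels was not tested.

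The members also differed in features that the rule did not use. Contigs made up 28 of 44 higher and 35 of 56 lower members (63.6% and 62.5%), compared to 48.2% of all kept probes. No member shared its contig or read with another member. On the array surface, 30 of 44 higher members (68.2%) and 16 of 56 lower members (28.6%) lay in the first 267 of 532 rows, compared to 50.2% of all kept probes. Dim probes that were no members (log2 signal under 5) differed between these first rows and the rest by a median of -0.12 on the first dispersant array at 3 d and -0.19 on the first at 7 d, and by between -0.02 and 0.08 on the other 4 dispersant arrays. Over all 60 arrays this difference was between -0.19 and 0.13, with -0.13 on the first un-spiked array at 7 d, so the first dispersant array at 3 d was not alone in it. The part of the place on the array in the members' levels was not tested. Over the 42 arrays of un-spiked soil and other silver forms, the mean Pearson correlation between members was 0.07 among higher and 0.14 among lower members, compared to 0.01 over all pairs of kept probes, as a description.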

How the data were processed

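RNA of 60 pools of 20 whole worms was hybridised to 60 one-colour Agilent arrays. Per the file headers, the authors quantified them with Agilent Feature Extraction 10.7.3.1, and the deposited intensity per spot (processed signal) is corrected for background within the array. Spot and background median intensities and flags were deposited beside it. Of 43750 gene probes, 23179 (53.0%) were kept, namely those that every array had marked as positive and significant, and log2 intensities were centred on each array's median, so that the depth behind a value is its signal above background and the 3 arrays per group limit the precision. No spot was saturated.

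limma 3.58.1 in R 4.3.3 was fitted on the 60 arrays together with 20 group means, and p-values (two-sided) were adjusted by Benjamini-Hochberg across kept probes at 5%. The members and the tests were chosen with earlier results of these data known. The 2 higher and the 2 lower members first in the order were named, and the others are given by their place in it. Members shown in detail beyond these were picked after their values were seen. Alternatives covered normalization (SVCD, which shifts groups over no-variation probes, was written anew from its description), filters, blocks, tests and left-out arrays. Normexp was run on the spot median intensity, since the files hold no spot mean. The series matrix was not used. The scripts were tested on simulated data.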

Additional observations from a re-analysis of the deposited data

How the results depend on the processing

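The list depended on the processing. Of the 100 members, 46 were picked again under SVCD normalization, 28 among probes well above background on all arrays, 60 with the mean of the other 12 under 0.15, 4 with each of the other 12 under 0.5, 18 with un-spiked soil as control, 21 with normexp (offset 50) and 41 without slide 9 in the dispersant controls, the last 2 chosen after the data were seen. Leaving out 1 array gave 56 to 90, with 56 without the first un-spiked array at 3 d, 64 without the third dispersant array at 3 d, and 62 and 63 without the first and the third dispersant array at 7 d. The 44 higher and 56 lower members became 28 and 72 under SVCD, 25 and 75 under Quantile normalization, 23 and 77 among probes well above background, 58 and 42 with un-spiked soil as control and 65 and 35 without slide 9, with 34 to 56 higher members when 1 array was left out. Normexp reduced the median mean change to 0.06 in the higher and -0.32 in the lower members, and 9 members turned sign, whereas no member turned sign in its mean change under the other scalings. Centring on the median of all gene probes moved the median change of all kept probes to -0.23 (EC20 at 3 d) and 0.18 (EC50 at 7 d), and SVCD to 0.18 in the last.

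For the same members, the calls under EC20 at 3 d (14) became 2 with normexp (0.0906% of all kept probes called) and 6 without slide 9 (1.04%). They became 0 on the compared groups only (0.0043%) and with the t-test of the methods (0%), with 4 to 15 when 1 array was left out. Under EC50 at 3 d (9) they became 3 with normexp (0.362%) and 5 with slide as a block (1.11%). They became 0 on the compared groups only (0%) and with the methods' test (0%), with 3 to 12 when 1 array was left out. Under EC20 at 7 d (0) they became 1 with SVCD (0.298%), 1 with slide (1.97%) and 2 with scan day (0.772%) as a block. Under EC50 at 7 d (1) they became 2 with SVCD (5.69% of all kept probes called), slide (1.89%) or scan day (2.00%) as a block. They became 0 with Quantile normalization (0.746%), normexp (0.0475%), the filter on well above background (1.67% of the probes that passed it) and without slide 9 (0.677%). The count was also 0 on the compared groups only (0.0086%), with the methods' test (0%) and with any 1 array left out (0 to 0). The time test (0) gave 1 with SVCD (2.27%). Between the days in un-spiked soil (5) they became 10 with SVCD (18.3% of all kept probes called), 1 with normexp (0.975%) and 1 with the filter (8.19% of the probes that passed it). They became 2 with slide as a block (3.08%) and 3 on the compared groups only (1.59%), with 2 to 9 when 1 array was left out. In dispersant soil (14) they became 7 with normexp (3.22%), 8 with the filter (11.2%), 6 without slide 9 (6.98%) and 0 on the compared groups only (0.259%), with 8 to 15. The cause of these shifts was not tested. A fit on the compared groups alone has fewer arrays to estimate the spread, and the part of this in the counts was not tested.

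Arrays of one replicate number did not deviate together in the median (correlation 0.01 over 570 pairs, compared to -0.00226 over 1140 pairs of different numbers). Pairs of one number ranged from -0.57 to 0.55, and the main fit treated the samples as unpaired. The replicate block left the members' counts at 14, 9, 0 and 1 in the 4 comparisons (1.26%, 1.22%, 0.242% and 0.880% of all kept probes called). It gave 13 between the days in dispersant soil (9.14%). Low signal remains a limit for the higher members, of which only 6 of 44 were well above background on all 60 arrays. Its part in their changes was not tested.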
